A study of Arabidopsis thaliana with 3 samples.

Results

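The UDP-glycosyltransferase (UGT) genes described here are those that the root expression table lists under a family name, UGT followed by a number, a letter and a second number, with UGT78D1 and UGT78D2 set aside by the rule. They numbered 50 of the 33446 gene names listed. RNA came from whole roots of 14-day-old Arabidopsis thaliana seedlings of the Col-0 accession, grown upright on agar plates in long days, in 3 libraries of one group. The plants carried INTACT, a tag for purifying nuclei that joins the nuclear-envelope-targeting WPP domain of RanGAP1 to GFP and to a peptide that can be biotinylated, driven by the broadly active 35S promoter. Every plant carried the tag and no untagged, treated or other tissue group was included, so no effect of a condition could be measured. The deposited value is a single number per gene for the 3 libraries together, in RPKM, reads scaled to gene length in kilobases and to sequencing depth. The spread between libraries could therefore not be given, no test was run, and each level below is a single value.

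UGT enzymes move a sugar, most often glucose from UDP-glucose, onto small molecules. Plants have large families of them, and they act on hormones, on lignin precursors and other phenylpropanoids, on flavonoids, on glucosinolate intermediates and on foreign chemicals. Attaching the sugar usually makes a molecule more soluble, changes its activity and allows storage in the vacuole. All share a stretch near the C-terminus, the PSPG box, that binds the sugar nucleotide, and its last residue is commonly glutamine in enzymes that use UDP-glucose.

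A PSPG box of 44 residues was found in the protein of 50 of the 50 genes in the RefSeq annotation of TAIR10.1. Its last residue was glutamine in 49 and histidine in UGT78D3, known as a flavonol arabinosyltransferase. The DNA encoding the box is shown for 3 sets of close relatives, to set how little the sequences differed beside how far the RNA levels did. UGT72E2, UGT72E3 and UGT72E1 glucosylate lignin precursors, and their boxes lie at chr5:26626187-26626318 (plus strand), chr5:9235771-9235902 (plus strand) and chr3:18855633-18855764 (minus strand). UGT85A2 and UGT85A3 are members of the largest array, with boxes at chr1:7895308-7895439 (minus strand) and chr1:7900774-7900905 (minus strand). UGT73B3 and UGT73B2 are neighbours with boxes at chr4:16343523-16343654 (minus strand) and chr4:16345737-16345868 (minus strand). Each sequence was read from the RefSeq genome of TAIR10.1, is all coding sequence, runs 5′ to 3′ on the coding strand and spans 132 bases. Capitals mark bases that differ from the first gene of the same set.
UGT72E2: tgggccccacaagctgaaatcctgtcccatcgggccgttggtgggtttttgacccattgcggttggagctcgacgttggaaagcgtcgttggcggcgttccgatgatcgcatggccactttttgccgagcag
UGT72E3: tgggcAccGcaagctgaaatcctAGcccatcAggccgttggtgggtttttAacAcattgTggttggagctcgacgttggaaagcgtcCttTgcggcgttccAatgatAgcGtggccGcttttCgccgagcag
UGT72E1: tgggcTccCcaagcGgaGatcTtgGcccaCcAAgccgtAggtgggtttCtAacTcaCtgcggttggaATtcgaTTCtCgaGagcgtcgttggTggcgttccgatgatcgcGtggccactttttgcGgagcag
UGT85A2: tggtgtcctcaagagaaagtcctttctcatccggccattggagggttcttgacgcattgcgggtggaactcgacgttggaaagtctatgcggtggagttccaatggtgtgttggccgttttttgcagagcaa
UGT85A3: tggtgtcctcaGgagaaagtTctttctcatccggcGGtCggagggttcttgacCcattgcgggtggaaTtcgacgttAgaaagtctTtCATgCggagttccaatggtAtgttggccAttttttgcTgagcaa
UGT73B3: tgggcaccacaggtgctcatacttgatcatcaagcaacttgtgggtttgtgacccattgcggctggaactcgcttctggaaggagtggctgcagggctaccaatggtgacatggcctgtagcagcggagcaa
UGT73B2: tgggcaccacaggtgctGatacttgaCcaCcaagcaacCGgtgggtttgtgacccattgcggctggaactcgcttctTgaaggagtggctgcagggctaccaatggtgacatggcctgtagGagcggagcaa

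The UGT72E3 box differed from that of UGT72E2 at 15 of 132 bases, and the RPKM values were 22.1 and 229. The UGT72E1 box differed from that of UGT72E2 at 24 bases, and its RPKM was 79.1. The UGT85A3 box differed from that of UGT85A2 at 16 bases, with an RPKM of 0.00526 against 31.2. In the last set, UGT73B2 differed from UGT73B3 at 7 bases and had an RPKM of 24.2 against 42.8. A like number of differing bases thus went with a 10.4-fold difference in RNA level between UGT72E2 and UGT72E3 and with about 1 read's worth of RNA for UGT85A3.

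Genes with an RPKM above 1 were counted as expressed, the threshold of the study. Of the 50 UGT genes, 35 (70%) passed it, 14 lay between 0 and 1, and UGT73C6 was listed at 0. Over all listed genes the share above 1 was 56.0%, and over the listed protein-coding genes alone it was 68.4%, so the share of UGT genes above 1 was near that of protein-coding genes at large. Their median RPKM was 8.37, with quartiles of 0.479 and 21.5, beside a median of 2.21 for all listed genes and 4.86 for protein-coding genes. An RPKM above 10 was listed for 23 UGT genes (46%), against 28.8% of all listed genes and 35.5% of protein-coding genes. A further 57 listed genes encode a PSPG box under another name or only a locus identifier. Of these, 39 (68.4%) had an RPKM above 1, with a median of 3.83. The 2 genes set aside by the rule, UGT78D2 and UGT78D1, were listed at 33.8 and 11.5.

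The summed RPKM of the 50 genes was 954, or 0.157% of the sum over all genes, and it was concentrated in a few of them. UGT72E2 alone made up 24.0% of this sum, and the highest 5 genes made up 54.3%. The lowest 25 genes together held 3.80%. UGT72E2, with an RPKM of 229, ranked 425 among all listed genes and stood 2.90-fold above the next, UGT72E1. After these came UGT71C1 at 74.4, UGT74B1 at 69.1, UGT84A2 at 66.4, UGT73B3 at 42.8, UGT85A2 at 31.2, UGT73B1 at 26.2, UGT73B2 at 24.2 and UGT71C4 at 23.9. The 10 highest genes held 69.8% of the sum.

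**Figure D1:**
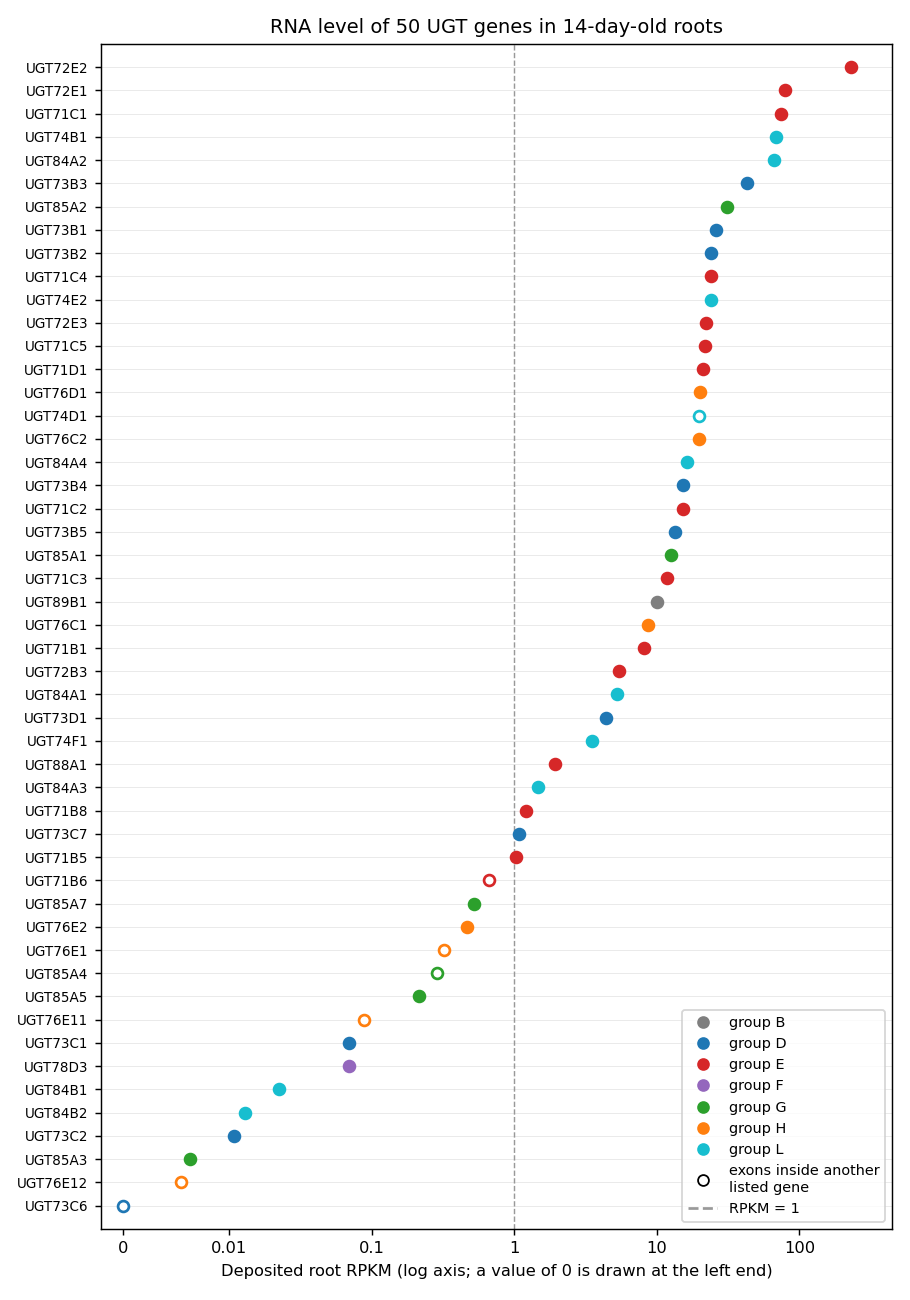
Deposited root RPKM of the 50 UGT genes on a log axis, ordered from highest to lowest and coloured by phylogenetic group, with the value of 0 drawn at the left end. UGT72E2 stands apart at 229, 35 genes lie to the right of the dashed line at 1, and open circles mark 7 genes with at least 85% of their exon bases inside an exon of another listed gene.

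The deposited values allowed a rough estimate of depth, since the lowest values of a table made from whole reads fall on steps. With the exon lengths of TAIR10.1, about 118000000 reads gave the best steps, and 64.5% of the 4299 values below 12 reads then lay within 0.05 of a whole number, against 10% for an arbitrary depth. Read numbers below are therefore estimates. The intervals of single genes are exact 95% Poisson intervals. Those of ratios between genes use a normal approximation on the log scale, which is rough at few reads. Both cover counting error only, since reads were amplified and carried no molecular identifiers. At this depth the counting error of every UGT gene above 1 RPKM was at most 6.95%, the value for UGT71B5. Of the 48 pairs of neighbours in the order of levels that could be compared, 22 had a counting interval of the ratio that included 1. These included the neighbours UGT73B2, UGT71C4 and UGT74E2, at 24.2, 23.9 and 23.8, and each neighbouring pair in the run from UGT72E3 at 22.1 to UGT76C2 at 19.7. The first 5 genes, by contrast, were each separated from the next by more than counting error, although their spread between plants is not known.

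The families fall into phylogenetic groups that are named by letters. Their counts above 1 stand beside a share of 68.4% over listed protein-coding genes. Group E, which holds families 71, 72 and 88, had 14 of 15 genes above 1, a median of 15.2 and 54.2% of the summed RPKM. Group L, with families 74 and 84, had 8 of 10 above 1, a median of 10.8 and 21.6% of the sum. In group D, family 73, 7 of 10 genes were above 1 and the median was 8.90. Groups H and G, families 76 and 85, were lower on the median, at 0.463 and 0.406, with 3 of 7 and 2 of 6 genes above 1. Both also held genes at high levels, such as UGT76D1 at 20.2 and UGT85A2 at 31.2. In group H, however, 3 of the 4 low genes have exons that lie almost wholly inside an opposite-strand gene. Without genes covered in this way the median was 14.1 in group H (3 of 4 above 1), 5.29 in group L, 13.4 in group D and 0.524 in group G, so the order of these groups depended on the covered genes. UGT89B1 of group B was listed at 9.98 and UGT78D3 of group F at 0.0693.

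Genes acting on lignin precursors and hydroxycinnamic acids included 3 of the 5 highest, UGT72E2, UGT72E1 and UGT84A2. All 7 UGT genes of this list were above 1, with RPKM from 1.47 to 229, and UGT72B1, which the table lists as GT72B1, was at 84.0. Over listed protein-coding genes 68.4% were above 1, the share to set beside the counts of this and the later lists. UGT72E2 (229) and UGT72E3 (22.1) encode enzymes known to form glucosides of the monolignols coniferyl and sinapyl alcohol, and UGT72E1 (79.1) is known to act on the aldehydes. In the UGT84A genes, whose products form glucose esters of hydroxycinnamic acids, the levels were 66.4 for UGT84A2, the sinapate enzyme, 16.2 for UGT84A4, 5.29 for UGT84A1 and 1.47 for UGT84A3. UGT84A2 was thus 45.3-fold above UGT84A3.

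UGT74B1, which adds the glucose in the core pathway of glucosinolate synthesis, was listed at 69.1, below UGT71C1 and above UGT84A2 in the order of levels. The 3 genes known for responses to pathogens and oxidative stress, UGT73B3, UGT73B4 and UGT73B5, were at 42.8, 15.2 and 13.4. Genes for glucosylation of salicylate and related defence acids were also above 1 throughout, with 3 of 3 UGT genes and both genes listed under another name. UGT76D1, which acts on dihydroxybenzoic acids, was at 20.2, UGT71C3, which acts on methyl salicylate, at 11.7, and UGT74F1, which forms the salicylate glucoside, at 3.50. UGT74F2, listed as GT, was at 10.4 and UGT76B1, listed by its locus AT3G11340, at 52.0.

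Genes of hormone conjugation were split between clearly listed and near-absent ones. In the cytokinin list, 3 of 4 UGT genes were above 1. UGT76C2 and UGT76C1, the cytokinin N-glucosyltransferases, were at 19.7 and 8.61, and UGT85A1, which glucosylates zeatin at its side chain, was at 12.6. UGT73C1, which does so in vitro, was at 0.0695. In the auxin list, UGT74E2, known to act on indole-3-butyric acid, was at 23.8 and UGT74D1, which acts on auxins and an oxidised form, at 19.9. UGT84B1 and UGT84B2, whose proteins are 80.5% identical, were at 0.0223 and 0.0128. IAGLU, annotated as an indole-3-acetate glucosyltransferase, was at 18.1. UGT84B1, which forms the glucose ester of indole-3-acetic acid, was listed with only about 4 reads (interval 1.09 to 10.2).

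Of the genes for glucosylation of abscisate, UGT71C5 was at 21.7, UGT71B8 at 1.22 and UGT71B6, whose exons lie within an opposite-strand gene, at 0.667. UGT75B1, listed as UGT1, was at 1.66. The brassinosteroid pair was low, with UGT73C6, whose exons are covered likewise, at 0 and UGT73C5, listed as DOGT1 and known to glucosylate brassinosteroids and the fungal toxin deoxynivalenol, at 0.736. In the flavonoid list, 0 of 2 UGT genes and 0 of 2 genes matched under another name were above 1. UGT78D3 was at 0.0693, UGT79B1 (listed as UF3GT), an anthocyanin xylosyltransferase, at 0.198 and UGT79B6 (AT5G54010) at 0.0120. Flavonoid glycosyltransferases outside this list were not all low. UGT78D1 and UGT78D2, set aside by the rule, were above 10, and of the loci without a UGT name, AT1G06000, annotated as a flavonol 7-O-rhamnosyltransferase, was at 36.6 and AT4G14090, annotated as an anthocyanidin 5-O-glucosyltransferase, at 0.424. In whole roots, few cells with much RNA of a gene and many cells with little cannot be told apart. The annotation used does not carry the names UGT71B7, UGT74C1, UGT75C1, UGT75D1, UGT76F1, UGT89A2 and UGT89C1, so no level is given under them, and their loci may be among the 57 other genes with a PSPG box.

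**Figure D2:**
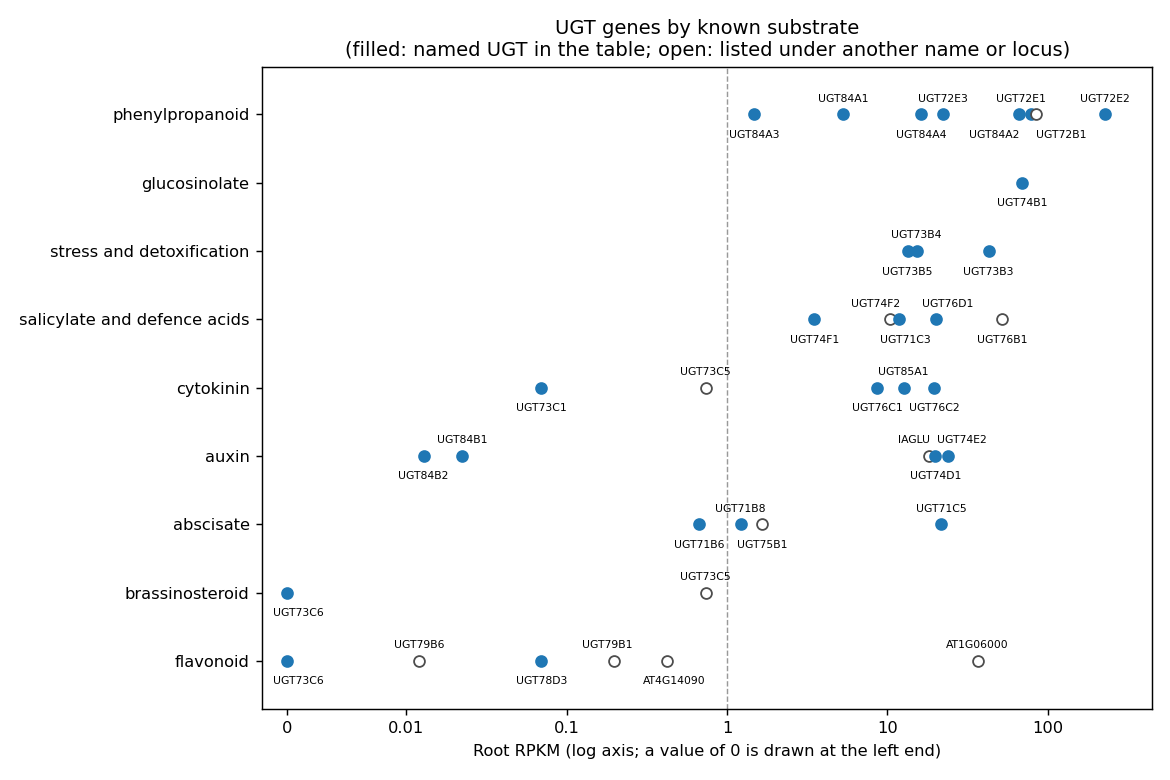
Root RPKM on a log axis of UGT genes grouped by the substrates they are known for, with filled points for genes named UGT in the table and open points for genes listed under another name or a locus. The 8 phenylpropanoid genes all lie above 1, between 1.47 and 229, and the flavonoid genes drawn lie below 1 except AT1G06000 at 36.6. UGT78D2 and UGT78D1, set aside by the rule and listed at 33.8 and 11.5, are not drawn.

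Other genes that the annotation names as UGT but the table lists differently had intermediate values. UGT75B2 (listed as UGT2) was at 5.94 and UGT87A2 (AT2G30140) at 11.3, while the sterol glucosyltransferases UGT80A2 (AT3G07020) and UGT80B1 (TT15) were at 11.7 and 3.45. Enzymes that make or convert the nucleotide sugars used as donors had a higher median than the UGT genes. Of 22 such genes, 21 were above 1 and the median RPKM was 33.5, against 8.37. UDP-glucose pyrophosphorylase, which makes UDP-glucose, was at 169 (UGP) and 6.83 (AtUGP2), and RHM1, which makes UDP-rhamnose, was at 171. Of the UDP-glucose 4-epimerases, UGE4 (listed as RHD1) was at 39.0 and UGE5, the exception below 1, at 0.287. Markers of root and of green tissue were also looked at. All 10 root markers were above 1, from 2.19 to 204, and 4 of 5 genes of green tissue were too, from 0.136 to 14.1. The medians were 13.5 and 2.47. The threshold of 1 did not separate the marker sets, and 68.4% of listed protein-coding genes passed it, so it does not check the tissue label. RBCS1A of green tissue, at 14.1, lay above some root markers, such as SCR at 11.4.

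At the lower end, 9 UGT genes had an RPKM below 0.1. UGT76E11, UGT73C1 and UGT78D3 were at 0.0876, 0.0695 and 0.0693, or about 18, 14 and 13 reads. UGT84B1, UGT84B2 and UGT73C2, the last at 0.0109, had about 4, 2 and 2 reads, and UGT85A3 and UGT76E12, at 0.00526 and 0.00462, about 1 read each. For UGT73C6 no read was counted, which allows an RPKM of up to 0.0152 (3 reads, a one-sided 95% limit). As the exons of UGT73C6 are covered by another gene, this limits the counted reads and not necessarily its RNA. For UGT78D3 over UGT84B1 the approximate interval of the ratio was 1.01 to 9.54, barely above 1. Their exact intervals, 0.0363 to 0.117 and 0.00611 to 0.0574 RPKM, overlapped. The order of neighbouring genes at this end was therefore not resolved at this depth.

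Gene overlap moved with some of these low values. In TAIR10.1, at least 85% of the exon bases of 7 UGT genes lie inside an exon of another listed gene, in each case on the opposite strand. They are UGT73C6, UGT76E11, UGT71B6, UGT85A4, UGT74D1, UGT76E12 and UGT76E1. Of these 7, only UGT74D1 (19.9) was above 1, and the median was 0.287, whereas 34 of the other 43 (79.1%) were above 1 with a median of 11.7. Among listed protein-coding genes, 156 of 356 (43.8%) of those covered in this way were above 1, against 68.7% of the rest. The opposite-strand genes were themselves mostly low. The one over UGT76E11, AT3G46668, was at 4.01, and those over UGT73C6, UGT71B6 and UGT85A4 were at 0. Those over UGT76E1, UGT74D1 and UGT76E12 were at 1.83, 0.745 and 0.117. Whether reads were counted by strand is not given in the sources used here, which leaves the levels of all 7 uncertain, and the part of the overlap in them was not tested. As for sequence shared with other genes, 39 UGT genes shared no stretch of 61 bases, the read length, with another place in the genome, and the largest share of such stretches was 5.32%, in UGT73C6. How reads that fit several places were counted is not given in the sources used here.

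UGT genes often lie side by side in the genome. With neighbours at most 10000 bp apart, 35 of the 50 genes formed 13 arrays, of which 6 held 2 genes, 6 held 3 and 1 held 5. Of the 35 genes in arrays, 22 were above 1 with a median of 5.29. Of the 15 genes with no other of the 50 within that distance, 13 were above 1 with a median of 19.9. Not all of these were isolated within the family. UGT72B3, UGT74E2, UGT74F1, UGT71B5 and UGT78D3 lay within 10000 bp of a PSPG-box gene outside the 50. Over listed protein-coding genes 68.4% were above 1. The genes in arrays included most of those with covered exons, namely UGT73C6, UGT71B6, UGT76E11, UGT76E12 and UGT76E1. Successive UGT genes of an array formed 22 pairs, of which 20 lay on the same strand and 15 had no other annotated gene between them. With 0.1 added to each RPKM, 14 of these pairs differed less than 3-fold and 5 differed over 10-fold, with a median of 1.91-fold. With 0.01 added, 6 differed over 10-fold, and with 1 added, 3 did. Of the 15 pairs with no gene between, 3 differed over 10-fold when 0.1 was added. Where a gene lies below the 0.1 added, the pair can look more even than its listed values. UGT76E12 (0.00462) and UGT76E11 (0.0876) counted as less than 3-fold apart in this way, as did UGT85A5 (0.213) and UGT85A3 (0.00526).

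The array of 5 is the UGT85A cluster on chromosome 1, from 7890259 to 7906969 in TAIR10.1, and 3 of the 5 large steps lay in it. In genomic order, UGT85A7 was at 0.524, UGT85A2 at 31.2, UGT85A5 at 0.213, UGT85A3 at 0.00526 and UGT85A1 at 12.6. The genes above 10 and those below 1 were thus interspersed, although UGT85A5 ends 153 bp from UGT85A2 and all 5 are read from the same strand. The proteins of UGT85A7, UGT85A3, UGT85A1 and UGT85A5 were 80.8%, 80.7%, 80.0% and 79.8% identical to that of UGT85A2. The other large steps were between UGT71B1 (8.14) and UGT71B6 (0.667), which have another family gene between them, and between UGT84A3 (1.47) and UGT84A4 (16.2). Other arrays were even, such as UGT73B3, UGT73B2 and UGT73B1 at 42.8, 24.2 and 26.2, and UGT71C5, UGT71C4 and UGT71C3 at 21.7, 23.9 and 11.7.

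Family genes that the table lists only by a locus identifier extended several arrays. On chromosome 3, UGT76E12 (0.00462) and UGT76E11 (0.0876) sat beside AT3G46680 at 0.369, AT3G46690 at 7.61, AT3G46700 at 85.5 and AT3G46720 at 16.3, so that the highest gene stood next to the far end and the low end was formed by genes with covered exons. On chromosome 2, UGT73C1, UGT73C2 and UGT73C6 sat with AT2G36770, AT2G36780 and DOGT1, and all of these 6 genes were below 1. On chromosome 5, UGT76C2 and UGT76C1 were followed by AT5G05880 at 16.4, AT5G05890 at 18.6 and AT5G05900 at 3.37, all above 1. These loci were named for their place beside the UGT genes, after their values were seen.

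**Figure D3:**
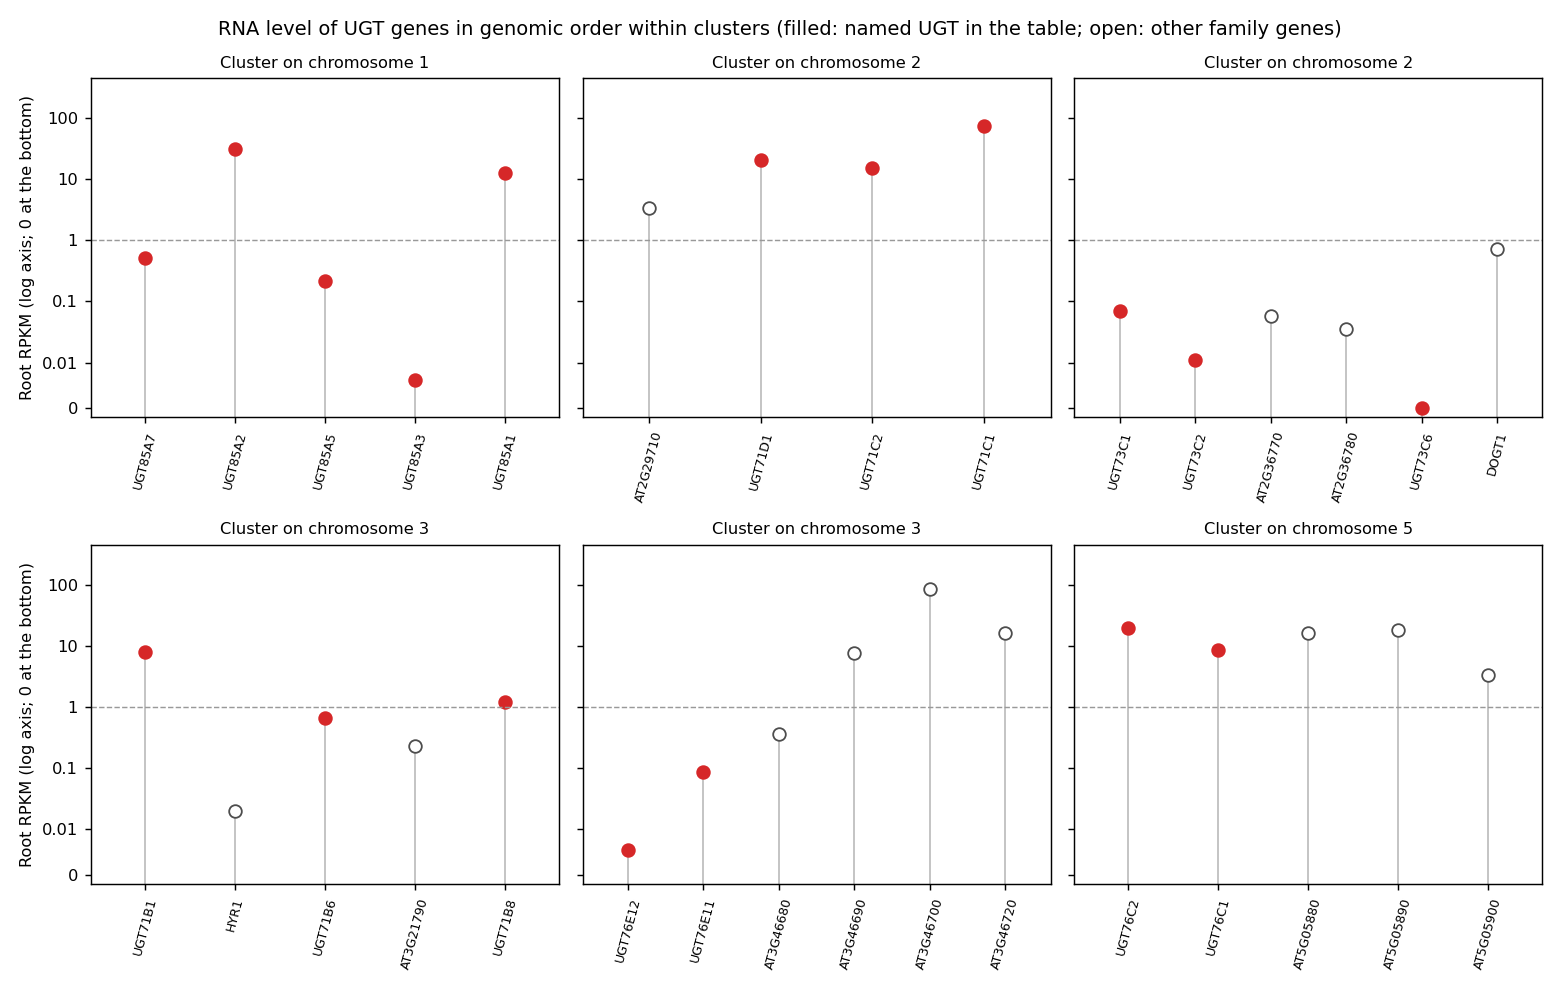
Root RPKM on a log axis of the genes in 6 clusters of at least 4 family genes, in genomic order, with filled points for genes named UGT in the table and open points for other genes encoding a PSPG box. Values above 10 and below 1 are interspersed in the UGT85A cluster (upper left), all genes of the UGT73C cluster lie below 1 (upper right), and values run from 0.00462 to 85.5 in the UGT76E cluster (lower middle).

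Among the 1225 pairs of the 50 genes, the fold difference between levels had a median of 9.57. The 16 pairs with proteins at least 75% identical had a median of 5.37-fold, 7 of them over 10-fold, and the 39 pairs at 60 to 75% identity had a median of 2.80-fold. The 94 pairs at 40 to 60% identity had a median of 18.5-fold, 61 of them over 10-fold, and the 1076 pairs under 40% had a median of 9.57-fold, so the difference in level did not follow identity step by step. Pairs share genes and arrays, so these are descriptions. UGT73B4 and UGT73B5, at 91.9% identity the closest pair and the one pair above 90%, were listed at 15.2 and 13.4, and as they overlap on the same strand by 255 exon bases their reads may be divided unevenly. UGT76E1 and UGT76E2 (88.6% identity) were both low, at 0.321 and 0.463. UGT72E2 and UGT72E3 (85.7%), on the other hand, differed 10.3-fold. Some genes differed as much from close relatives outside the 50. With 0.1 added as for the pairs, UGT74E2 was 48.3-fold above AT1G05675 (88.1% identity, 0.395), and AT5G17040 (4.79) was 28.9-fold above UGT78D3 (78.3% identity, about 13 reads).

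**Figure D4:**
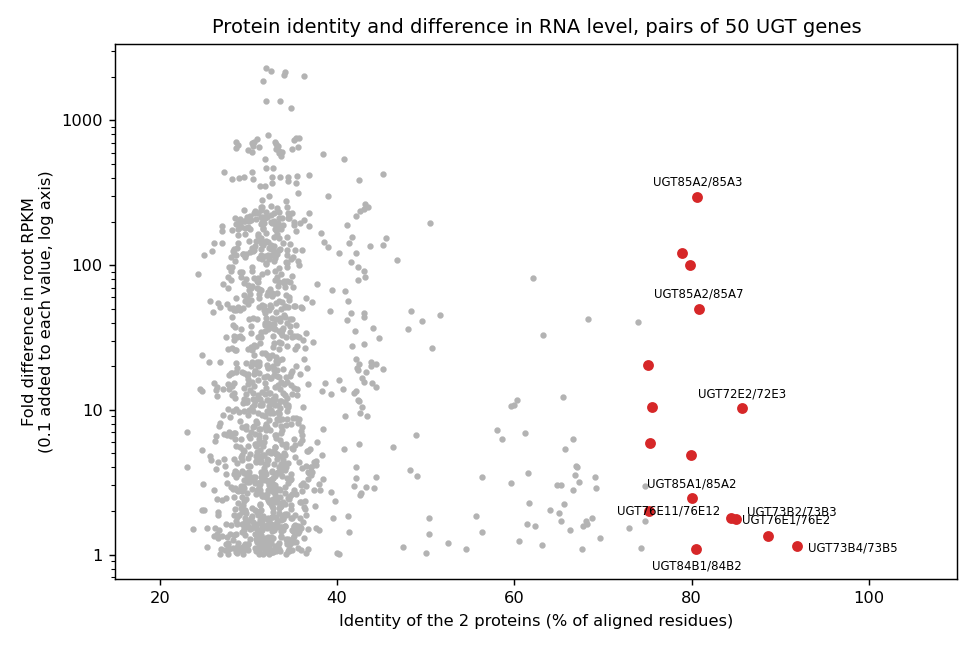
Fold difference in root RPKM (0.1 added to each value, log axis) against protein identity for the 1225 pairs of the 50 UGT genes, with the 16 pairs at 75% identity or more in red. The red pairs span from 1.08-fold for UGT84B1 and UGT84B2 to 297-fold for UGT85A2 and UGT85A3. Both ends depend on the 0.1 added, since UGT84B1, UGT84B2 and UGT85A3 had about 4, 2 and 1 reads.

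In gene structure, 27 of the 50 genes had no intron within the coding sequence, 21 had 1 and 2 had 2. Of the 27 without an intron, 21 (77.8%) were above 1, with a median RPKM of 8.14. Of the 23 with an intron, 14 (60.9%) were above 1, with a median of 8.61. The 2 shares lay on either side of the 68.4% of listed protein-coding genes, and the medians were close. Without the 7 genes whose exons lie in another listed gene, the counts were 21 of 25 (84%) and 13 of 18 (72.2%). Among listed protein-coding genes not covered in this way the share was 68.7%. Protein length varied little, from 438 to 516 residues with a median of 480.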

How the data were processed

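RNA of whole roots was sequenced in 3 single-end libraries with 61-base reads. Reads were aligned to TAIR10 by the authors (the paper names TopHat2, the submitters' processing notes STAR), counted per gene with HTSeq and turned into RPKM with edgeR. Versions, annotation release, use of strand and the way the libraries were combined are not given in the sources used here. The deposited RPKM table holds a single root column, so neither spread nor depth per library is known.

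Names were matched to RefSeq's TAIR10.1 annotation by locus, symbol or synonym (32552 of 33446; all 50 UGT genes, 45 by symbol and 5 by synonym). That annotation, perhaps not the one the authors counted on, gave the coordinates, exon lengths, proteins and sequences. Proteins were aligned pairwise with Biopython 1.88. Counts, medians and ratios were computed in Python 3.11.15 with numpy 2.4.6, pandas 2.3.3 and scipy 1.17.1, and plotted with matplotlib 3.10.9. Ratios within arrays and between relatives compared by protein identity used a pseudocount of 0.1 RPKM, other ratios none. The depth estimate was tested on simulated data.

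The genes named are those on lists of known substrates, the 10 highest, any at 0, those in arrays of at least 4, pairs at 90% protein identity or more, UGT genes listed under other names, and enzymes of nucleotide sugars. Others, including the least abundant genes and close relatives, were chosen after their values were seen. Members and lists were chosen with earlier results of these data known. Alternatives were other thresholds, TPM, other array gaps and pseudocounts, and leaving out genes.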

Additional observations from a re-analysis of the deposited data

How the results depend on the processing

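No paired analysis was possible because the table holds a single column for all libraries, and leaving out each library was not run for the same reason. The count of UGT genes above threshold was 37 at RPKM above 0.5, 30 at RPKM above 2 and 36 at above 1 TPM, beside 59.6%, 50.9% and 58.7% of all listed genes. The median moved from 8.37 to 13.8 on the TPM scale, where that of all genes was 3.63, to 6.77 with UGT73B4 and UGT73B5 (over 90% identical) left out, and to 11.7 without the 7 genes whose exons lie in another listed gene, an alternative chosen after seeing the data. The share held by the 5 highest genes was 45.8% without UGT72E2. Neighbours over 10-fold apart numbered 3 with a pseudocount of 1 RPKM. The other 24 of 29 alternatives moved a count by less than 1.5 times, or a median or share by less than 5% of its value. Single values without replicates limit every comparison, and genes with about 4 reads or fewer could not be ordered among themselves.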
